A study of Homo sapiens with 2 samples.

Results

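The chemokine ligands, the small secreted proteins that attract cells, were examined in MRC-5 cells after silencing of periostin. The members were the genes whose symbol begins with CXCL or CCL and a number, together with CX3CL1, XCL1 and XCL2, named through the RefSeq accession of each array spot. Of 49 such symbols in RefSeq, 39 had a probe on the array, out of 21743 named genes, and they were measured by 52 probes on 79 spots. MRC-5 cells are cultured human fibroblasts derived from fetal lung. 1 culture received control siRNA and 1 received periostin siRNA, given at 10 nM for 48 h, and the RNA of each was hybridized to 1 single-colour Agilent array. The question was which genes depend on periostin, a matricellular protein of lung fibroblasts, and with 1 array per condition no test between the conditions was possible. Values are background-subtracted spot intensities scaled to a common 75th percentile of 377, called scaled signals here. Their errors are the SD over the spots where a probe was printed 10 times, and otherwise the error propagated by the scanner program. Neither covers the difference between cultures.

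Chemokines bind G protein-coupled receptors on leukocytes and guide them along gradients held on heparan sulfate. CXC ligands with an ELR motif attract neutrophils, the CXCR3 ligands attract activated T cells and are induced by interferons, and CC ligands attract monocytes, eosinophils, lymphocytes and dendritic cells. Lung fibroblasts release several of them when exposed to inflammatory cytokines.

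The promoters of 5 members are shown because these genes lie in the chromosome 4 chemokine cluster and differed in their values. CXCL9, CXCL10 and CXCL11 belong to the CXCR3 ligands, CXCL10 and CXCL11 being next to each other in RefSeq with 0 genes between them, whereas CXCL2 and CXCL8 belong to the neutrophil-attracting ligands and had ratios of opposite sign. Each sequence is the 250 bases before the start of the gene, from RefSeq on GRCh38.p14, at chr4:76023498-76023747 for CXCL10, chr4:76036071-76036320 for CXCL11, chr4:76007510-76007759 for CXCL9, chr4:74099196-74099445 for CXCL2 and chr4:73740319-73740568 for CXCL8. All were on the minus strand except CXCL8, and all are written 5′ to 3′ on the strand of the gene. Capitals mark the interferon element GAAANNGAA, the NF-kB consensus GGGRNNYYCC and TATAAA, searched on both strands. In these letters R is A or G, Y is C or T, and N is any base.
CXCL10: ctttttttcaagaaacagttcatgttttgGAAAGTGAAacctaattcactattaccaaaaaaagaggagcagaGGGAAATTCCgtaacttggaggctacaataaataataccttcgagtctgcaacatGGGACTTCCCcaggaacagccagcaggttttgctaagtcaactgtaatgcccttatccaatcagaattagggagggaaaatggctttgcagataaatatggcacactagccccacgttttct
CXCL11: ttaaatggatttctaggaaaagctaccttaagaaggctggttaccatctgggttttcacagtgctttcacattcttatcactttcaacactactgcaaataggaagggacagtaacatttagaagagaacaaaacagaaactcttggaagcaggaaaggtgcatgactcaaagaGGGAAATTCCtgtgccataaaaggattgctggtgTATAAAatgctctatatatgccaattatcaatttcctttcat
CXCL9: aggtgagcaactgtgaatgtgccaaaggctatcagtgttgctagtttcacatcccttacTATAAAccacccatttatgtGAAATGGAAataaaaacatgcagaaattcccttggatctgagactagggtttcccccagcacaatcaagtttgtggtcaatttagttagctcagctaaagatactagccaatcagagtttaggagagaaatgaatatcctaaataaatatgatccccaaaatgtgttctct
CXCL2: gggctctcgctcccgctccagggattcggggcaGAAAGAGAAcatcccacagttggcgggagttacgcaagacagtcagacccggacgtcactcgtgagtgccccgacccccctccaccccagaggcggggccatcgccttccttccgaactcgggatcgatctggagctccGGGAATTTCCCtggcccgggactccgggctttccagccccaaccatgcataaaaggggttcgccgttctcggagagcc
CXCL8: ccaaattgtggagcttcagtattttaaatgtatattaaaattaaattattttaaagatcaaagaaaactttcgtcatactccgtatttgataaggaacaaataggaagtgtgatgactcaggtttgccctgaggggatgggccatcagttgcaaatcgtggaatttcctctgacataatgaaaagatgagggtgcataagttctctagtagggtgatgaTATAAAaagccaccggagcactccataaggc

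The CXCL10 window held an interferon element 221 to 213 bases before the start and the NF-kB consensus at 177 to 168 and at 122 to 113 bases. The CXCL11 window held the NF-kB consensus 76 to 67 bases before the start and TATAAA at 42 to 37 bases. CXCL9 held an interferon element at 171 to 163 bases and TATAAA at 191 to 186 bases. CXCL2 held an interferon element at 217 to 209 bases and NF-kB matches on both strands that overlapped, at 78 to 69 and 77 to 68 bases, and CXCL8 held TATAAA at 31 to 26 bases. The CXCL8 window also holds ggaatttcc, which lacks only the first G of the NF-kB consensus and was not counted as a match. The absence of a match in CXCL8 is thus not the absence of an NF-kB site. A promoter was found for 30 of the 39 members. The interferon element was in 7 of these 30 and in 6.88% of all 35116 promoters of that length. The NF-kB consensus was in 10 of the 30 and in 9.96% of all, and TATAAA was in 14 of the 30 and in 10.7% of all. The member counts are by gene, whereas the percentages are by promoter entry, so the measures differ. Related genes are counted separately, such as CCL3 and CCL3L3, which held the same interferon element at 57 to 49 bases. CXCL1, CXCL2, CXCL3, CXCL5 and CXCL6 likewise held the same NF-kB letters. Of the 5 ligands with a ratio or a bound whose window held the interferon element, CXCL10, CXCL2, CCL3 and CCL19 were above 0 and CXCL3 was below 0 with periostin siRNA. Of the 7 with the NF-kB consensus, CXCL10, CXCL11, CXCL1, CXCL2 and CCL20 were above 0 and CXCL3 and CXCL5 were below 0. The values of CCL3, CXCL11 and CCL20 are bounds that could only be above 0, and the CCL19 ratio was smaller than its spot error. Of all 21 ligands with a ratio or a bound 16 were above 0, as were 54.5% of all genes. A link between motif and direction was not tested. A match is a description of the letters, and binding was not measured.

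POSTN, the gene targeted by the siRNA, had a scaled signal of 2638 ± 264 in the control and 280 ± 28.0 after silencing. This was 9.43-fold lower (log2 ratio -3.24 ± 0.20), the direction given by the labels. The 10 fibroblast markers, such as COL1A1, DCN and PDGFRA, were all detected well above background, with log2 ratios from -0.90 to 0.83 and a median of -0.10. The signal was well above background, by the flag of the scanner program, for 58.0% of the 58717 non-control spots with control siRNA and for 58.9% with periostin siRNA. Among 667 probes printed 10 times, the SD of the log2 ratio between spots was 0.40 for scaled signals under 20, 0.27 from 20 to 50, 0.16 from 50 to 200 and 0.07 above 200.

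The ligand with the largest measured ratio was CXCL10, and CXCL11, CCL5 and CCL26 were the other members higher by more than 3-fold with periostin siRNA, the threshold the study used. These 4 were among 21 members with a ratio or a bound, which is 19.0%, where 3.37% of the 16052 named genes with a ratio or a bound were higher past 3-fold. No member was lower past 3-fold (0 of 21, and 2.75% of all genes). In sign, 16 of the 21 were above 0, 5 of them bounds that could only be above 0, and 5 were below 0, while 54.5% of all genes were above 0. The median log2 ratio was 0.59, and it was 0.06 over all genes. Of the 21, 9 had a value within 1.5-fold of equal signal. CCL20 is among these by its lower bound of 1.47-fold, so its difference may be larger.

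The 39 members divided by detection as follows. On both arrays 16 were well above background. CCL3, CCL5, CCL20, CCL28 and CXCL11 were well above background with periostin siRNA alone, 12.8% of members, where 2.86% of all named genes were. No member was well above background with control siRNA alone (0 of 39, and 2.19% of all named genes). A gene detected on 1 array alone entered the counts through its higher side, and its ratio is a lower bound, taken against 7.55, the lowest control signal flagged as well above background, or its own control signal if higher. Among the 16 members detected on both arrays, 11 were above 0, the median was 0.21, and CXCL10 and CCL26 were the 2 past 3-fold. Over the 14957 named genes detected on both arrays, the median was 0.05 and 2.70% were higher past 3-fold.

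**Figure D1:**
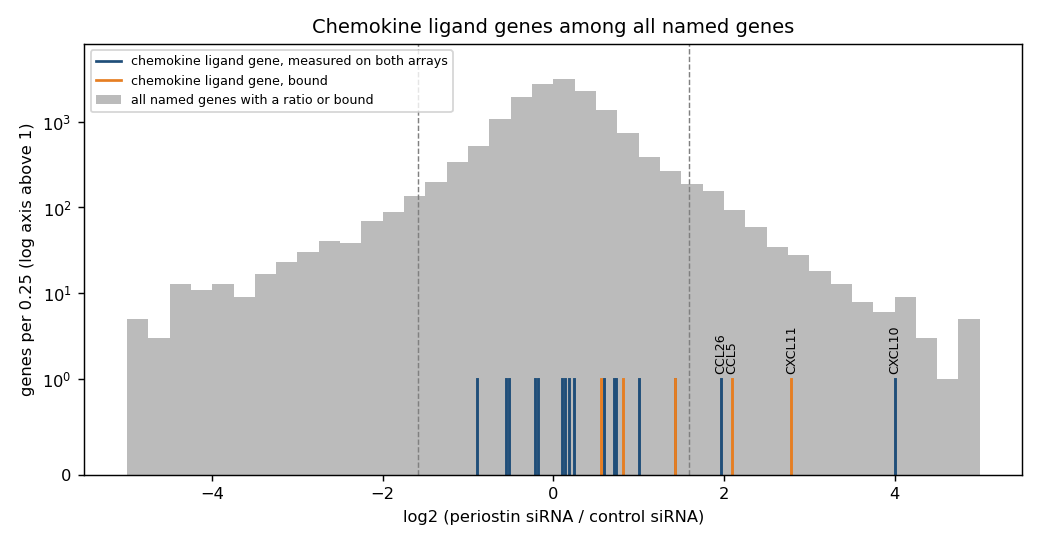
Histogram of log2 (periostin siRNA over control siRNA) for the 16052 named genes with a ratio or bound (grey, log count axis; the outermost bars also hold any value beyond them), with the 21 chemokine ligand genes as vertical lines and dashed lines at 3-fold. CXCL10, CXCL11, CCL5 and CCL26 lie beyond the upper dashed line and no ligand lies beyond the lower one.

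**Figure D2:**
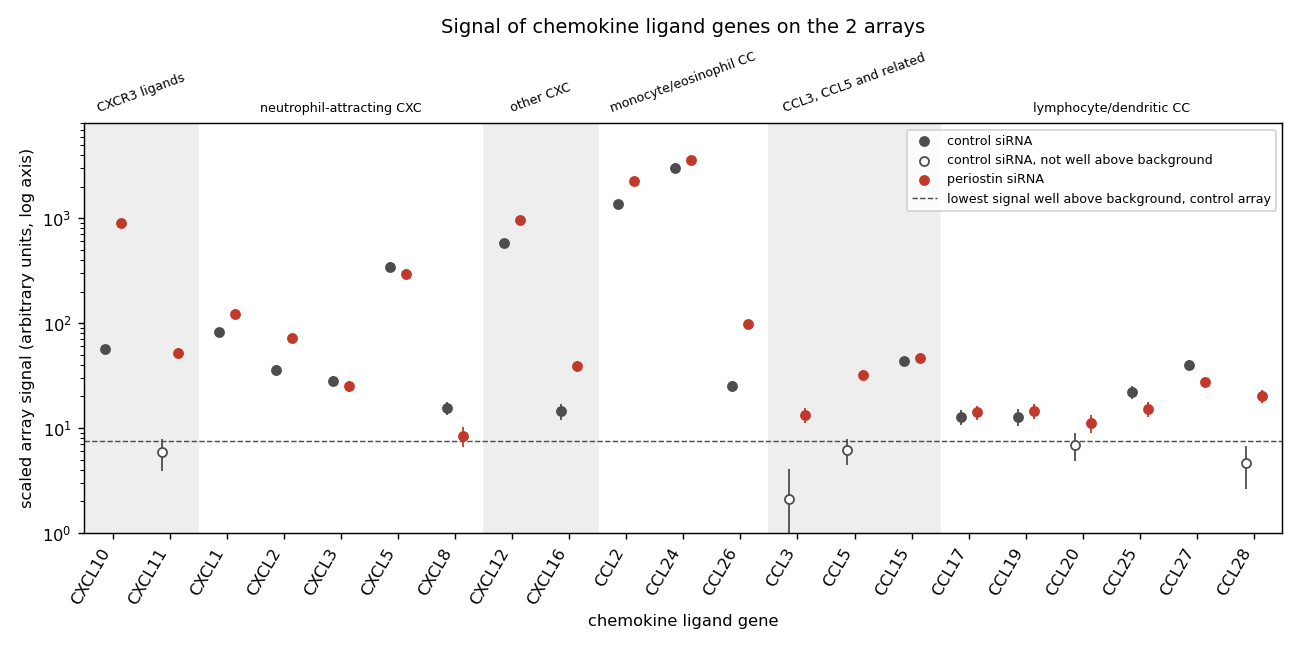
Scaled signal (arbitrary units, log axis) of the 21 chemokine ligand genes with control siRNA (grey) and periostin siRNA (red), with spot errors as bars; open circles were not well above background, and the dashed line is the lowest control signal well above background, 7.55. The largest gap is that of CXCL10, from 56.3 to 899, and the 5 open circles are all on the control array.

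The ligands of CXCR3, the receptor of activated T cells and natural killer cells, included CXCL10 and CXCL11, both past 3-fold, and CXCL9, which was not detected. CXCL10, also named IP-10, had a scaled signal of 56.3 ± 5.91 with control siRNA and 899 ± 90.0 with periostin siRNA. The difference was 16.0-fold (log2 ratio 4.0 ± 0.21). A second CXCL10 probe went from 50.6 ± 5.36 to 835 ± 83.5, a log2 ratio of 4.05 ± 0.21, so that both probes gave the same ratio within their spot errors. CXCL11, also named I-TAC, had a signal of 5.91 ± 2.01 with control siRNA, not well above background, and of 52.2 ± 5.58 with periostin siRNA. It was thus at least 6.92-fold higher with periostin siRNA. CXCL9, the ligand of this group best known for its induction by interferon-gamma, was below background on both arrays, at 3.20 and 3.90. CXCL9 is separated from CXCL10 by 1 gene in RefSeq. Under normexp, a model-based correction that leaves an offset of 50 on both arrays, the log2 ratio was 2.94 for CXCL10 and 0.76 for CXCL11, so that CXCL11 was no longer past 3-fold.

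The neutrophil-attracting CXC ligands, which act through CXCR1 and CXCR2, divided in direction. Of the 6 on the array, 2 were above 0, 3 were below 0, CXCL6 was below background on both arrays, and the median log2 ratio was -0.18. CXCL2 was 35.6 ± 3.95 in the control and 71.6 ± 7.37 after periostin silencing, a 2.01-fold difference (log2 ratio 1.01 ± 0.22). Its second probe went from 41.8 ± 4.49 to 51.1 ± 5.38, a log2 ratio of 0.29 ± 0.22, so the size of the CXCL2 difference depended on the probe. CXCL1, first described as a melanoma growth factor, was 81.5 ± 8.39 and 123 ± 12.4, a log2 ratio of 0.59 ± 0.21. The second CXCL1 probe gave 0.37 ± 0.25, in the same direction.

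CXCL8, or interleukin 8, was the neutrophil ligand with the lowest ratio. Its scaled signal was 15.6 in the control and 8.37 after periostin silencing, 1.87-fold lower (log2 ratio -0.90 ± 0.37), and the log2 ratio was -0.25 under normexp. Both values were close to the lowest signals flagged as well above background. CXCL5, a ligand made by epithelial cells and fibroblasts, was 344 and 296, a log2 ratio of -0.22 ± 0.20. CXCL3 was 28.2 and 24.9, a log2 ratio of -0.18 ± 0.24, less than its spot error. CXCL1, CXCL2 and CXCL3 are close in sequence, and hybridization of one transcript to the probe of another cannot be told apart here.

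Among the other CXC ligands, CXCL12 and CXCL16 were detected, both with ratios above 0, and CXCL13, CXCL14 and CXCL17 were below background on both arrays. CXCL12, the stromal ligand of CXCR4 and ACKR3, was measured by 4 probes to different transcripts, and these did not share a direction. The probe to the alpha transcript (NM_199168), printed 10 times, ranged from 549 to 610 with a median of 569 with control siRNA, and from 883 to 1008 with a median of 941 with periostin siRNA. The spots of both arrays did not overlap, and the means were 575 ± 20.2 and 952 ± 40.3, a log2 ratio of 0.73 ± 0.05. The probe to the beta transcript (NM_000609) went from 35.9 ± 4.05 to 90.7 ± 9.26, a log2 ratio of 1.34 ± 0.22. Both probes to the gamma transcript (NM_001033886) were below 0, from 216 ± 21.7 to 164 ± 16.5 (log2 ratio -0.40 ± 0.21) and from 13.2 ± 2.08 to 10.7 ± 1.94 (log2 ratio -0.30 ± 0.35). The alpha and beta probes were thus higher, and the gamma probes lower, with periostin siRNA. The mean over the 4 probes was 0.34. CXCL16, a membrane-anchored ligand of CXCR6 that is shed by proteases, was 14.4 with control siRNA and 38.9 after periostin silencing, 2.70-fold higher (log2 ratio 1.43 ± 0.29), and 0.34 under normexp.

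**Figure D3:**
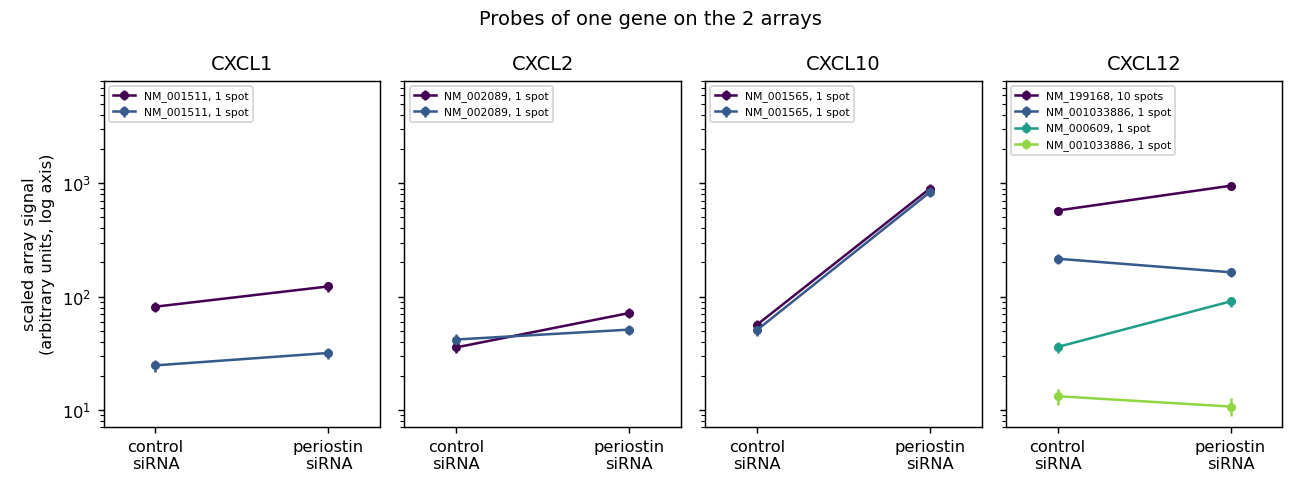
Scaled signal (arbitrary units, log axis) on both arrays of each probe that was well above background on both for CXCL1, CXCL2, CXCL10 and CXCL12, with spot errors as bars and the RefSeq accession of each probe in the key. Both CXCL10 probes show the same slope, whereas 2 of the 4 CXCL12 probes slope down, those to NM_001033886.

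The CC ligands of monocytes and eosinophils had 3 detected members of 7 on the array, all above 0, with a median log2 ratio of 0.71. CCL26, or eotaxin-3, a CCR3 ligand that attracts eosinophils and is induced by interleukins 4 and 13, was 25.1 ± 3.18 in the control and 97.7 ± 9.96 after periostin silencing. The difference was 3.89-fold (log2 ratio 1.96 ± 0.23), and the log2 ratio was 0.85, below 3-fold, under normexp. CCL24, or eotaxin-2, is the RefSeq neighbour of CCL26 with 0 genes between them and binds the same receptor. Its signal was 3027 and 3579, a log2 ratio of 0.24 ± 0.20, close to its spot error. CCL2, or MCP-1, the CCR2 ligand that attracts monocytes, was measured by 1 probe printed 10 times. Its spots ranged from 1286 to 1464 with a median of 1373 with control siRNA, and from 2110 to 2330 with a median of 2257 with periostin siRNA. These spots did not overlap, and CCL2 was 1.64-fold higher with periostin siRNA (log2 ratio 0.71 ± 0.04). CCL7, CCL8, CCL11 and CCL13, other ligands of CCR2 or CCR3, were below background on both arrays.

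Of the 8 CC ligands on the array grouped with CCL3 and CCL5, many of which bind CCR1, CCL3, CCL5 and CCL15 were detected, CCL15 on both arrays and the other two with periostin siRNA alone, so that the ratios of CCL3 and CCL5 are lower bounds. CCL5, or RANTES, which attracts T cells and monocytes, had a signal of 6.17 ± 1.72 with control siRNA, not well above background, and 32.0 ± 3.61 with periostin siRNA. It was at least 4.24-fold higher, and its log2 ratio was 0.52, below 3-fold, under normexp. CCL3, or MIP-1 alpha, was 2.10 in the control and 13.3 after periostin silencing, at least 1.77-fold higher, with a log2 ratio of 0.13 under normexp. CCL3 has the near-identical copies CCL3L1 and CCL3L3, which its probe may also detect, and CCL3L3 was itself below background on both arrays. CCL15, a CCR1 ligand, was 43.3 and 46.4, a log2 ratio of 0.10 ± 0.22, less than its spot error and below 0 under quantile normalization and under scaling on the median. CCL14, CCL18, CCL23 and CCL4L2 were below background on both arrays.

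Of the 9 CC ligands of lymphocytes and dendritic cells, 6 had a ratio or a bound, 4 above 0 and 2 below 0, with a median log2 ratio of 0.16. CCL28, a mucosal ligand of CCR10 and CCR3, was 4.67 with control siRNA, not well above background, and 20.3 with periostin siRNA, at least 2.69-fold higher, and its log2 ratio was 0.34 under normexp. CCL20, the CCR6 ligand that attracts dendritic cells and Th17 cells, was 6.92 and 11.1, at least 1.47-fold higher. CCL27, the skin ligand of CCR10, was 39.8 in the control and 27.2 after periostin silencing, a log2 ratio of -0.55 ± 0.23. CCL27 and CCL28 thus had opposite signs although they share a receptor. CCL25, the thymic and intestinal ligand of CCR9, was 21.9 and 15.2, a log2 ratio of -0.52 ± 0.31, and its second probe was below background. CCL17, a CCR4 ligand, was 12.7 and 14.1, a log2 ratio of 0.14 ± 0.33. CCL19, a CCR7 ligand of lymph nodes, was 12.8 and 14.5, a log2 ratio of 0.18 ± 0.35. The ratios of CCL17 and CCL19 were smaller than their spot errors and were below 0 under normexp. CCL1, CCL21 and CCL22 were below background on both arrays, as was XCL1, a C chemokine that attracts cross-presenting dendritic cells.

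The 18 members below background on both arrays had scaled signals between 1.61 and 9.02 and are given no ratio. They left 53.8% of members with a ratio or a bound, where 73.8% of all named genes had one. CCL4, CCL16, CCL3L1, CCL4L1, CX3CL1 and XCL2, the non-coding genes CCL15-CCL14 and CCL3-AS1 and the pseudogenes CXCL1P1 and CCL3P1 were not matched to a probe and were not analysed here.

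**Figure D4:**
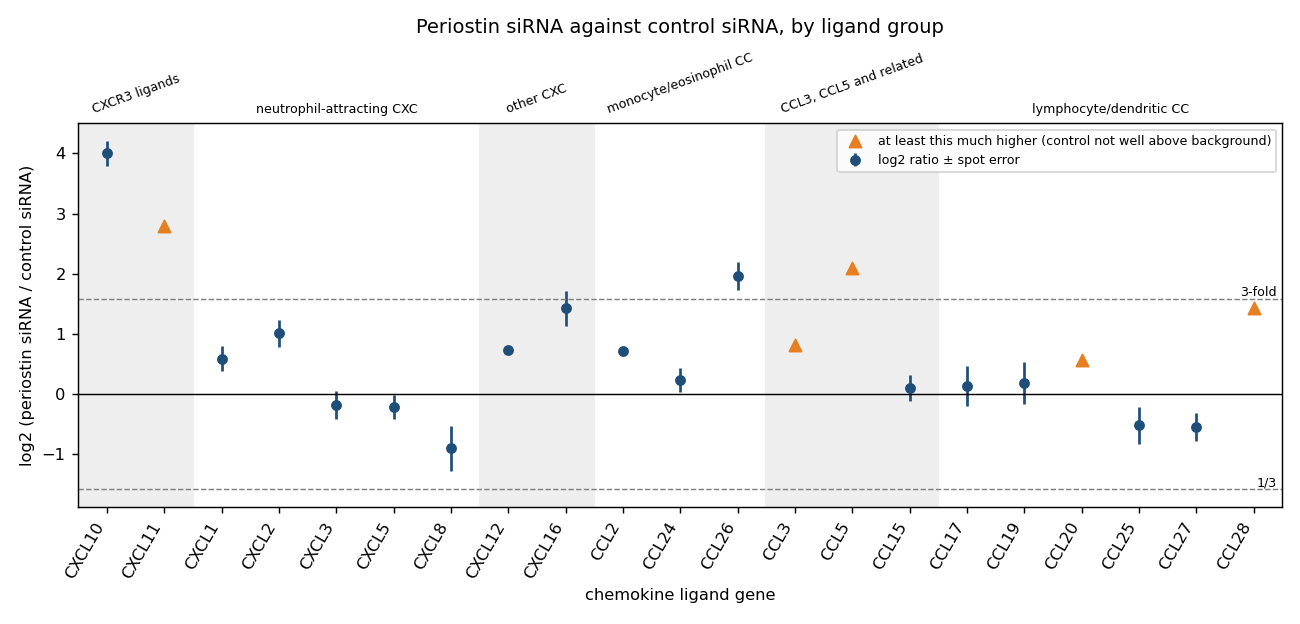
Log2 ratio (periostin siRNA over control siRNA) of the 21 chemokine ligand genes by ligand group, as points with spot errors where both arrays were well above background and as triangles (lower bounds) where the control array was not; dashed lines mark 3-fold. The CXCR3 ligands are at 4.0 and at least 2.79, and the neutrophil-attracting ligands lie on both sides of 0, from -0.90 to 1.01.

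Of 25 chemokine receptors on the array, 12 had a ratio, 8 above 0 and 4 below 0, with a median log2 ratio of 0.23, beside 54.5% above 0 and a median of 0.06 over all genes. No receptor was higher past 3-fold, where 3.37% of all genes were higher and 2.75% were lower. ACKR4, an atypical receptor that removes CCL19, CCL21 and CCL25, was lower past 3-fold, at 48.0 ± 5.14 with control siRNA and 10.3 ± 2.13 with periostin siRNA (log2 ratio -2.22 ± 0.34). ACKR3, the atypical receptor of CXCL12 and CXCL11, was 714 ± 71.4 and 1465 ± 147, 2.05-fold higher with periostin siRNA. CXCR4, the signalling receptor of CXCL12, was below background on both arrays. CXCR3, the receptor of CXCL10 and CXCL11, was 133 and 174, a log2 ratio of 0.39 ± 0.21. CCR10, the receptor of CCL27 and CCL28, was 565 and 1153, a log2 ratio of 1.03 ± 0.20, and CCR7, the receptor of CCL19, was 29.0 and 59.9, a log2 ratio of 1.04 ± 0.23. CCR1, a receptor of CCL5 and CCL3, had a log2 ratio of 0.06 ± 0.22, and CCR6, the receptor of CCL20, was 155 and 156. CXCR1, CXCR2, CXCR6, CCR2, CCR3, CCR4 and CCR9 were below background on both arrays, and are given no ratio.

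All 12 genes that process chemokines or hold them on the matrix were well above background, 8 above 0 and 4 below 0, and their median log2 ratio was 0.46. Beside this list, 54.5% of named genes with a ratio or bound were above 0, 2.75% were lower past 3-fold, and the median was 0.06. TNFAIP6, or TSG-6, a hyaluronan-binding protein that also binds CXCL8 and keeps it from neutrophils, was lower past 3-fold, at 253 ± 25.3 with control siRNA and 26.0 ± 3.16 with periostin siRNA (log2 ratio -3.28 ± 0.23). DPP4, the protease that trims the ends of CXCL10, CXCL11 and CXCL12, was 8750 and 16493, 1.88-fold higher. ADAM10 and ADAM17, which shed CXCL16, had log2 ratios of -0.24 ± 0.20 and 0.49 ± 0.20. The proteoglycan GPC1 was 29550 and 43231, a log2 ratio of 0.55 ± 0.20.

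Of 26 cytokines and signalling genes that induce chemokines, 21 had a ratio or a bound, 13 above 0 and 8 below 0, with a median log2 ratio of 0.34. The shares over all genes were 54.5% above 0, 3.37% higher past 3-fold and 2.75% lower past 3-fold, with a median of 0.06. IL6 was 92.1 ± 9.33 in the control and 335 ± 33.5 after periostin silencing, 3.63-fold higher (log2 ratio 1.86 ± 0.21). TNFAIP3, a feedback inhibitor of NF-kB, was 30.6 ± 3.48 and 102 ± 10.4, 3.34-fold higher. IL1B, an inducer of CXCL8, was 324 ± 19.2 and 103 ± 4.98, 3.14-fold lower, and was the list's only gene lower past 3-fold. CEBPB, a transcription factor of the CXCL8 promoter, was 20095 and 6705, a log2 ratio of -1.58 ± 0.03. NFKBIA, the NF-kB inhibitor that NF-kB itself induces, was 3677 and 10533, 2.86-fold higher, whereas RELA had a log2 ratio of -0.02 ± 0.11. The interferon signalling genes IRF7 and IRF9 had log2 ratios of 1.25 ± 0.20 and 1.26 ± 0.20, and IRF1 had -0.14 ± 0.20. TNF, IL4, IL13, IFNG and IFNB1 were below background on both arrays.

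Genes known as markers of other cell types were read on the same arrays, although MRC-5 cells are cultured fibroblasts. Their signals are therefore not read as amounts of those cells. In bulk RNA a change in cell numbers and a change in RNA per cell cannot be told apart. Of 9 immune markers on the array, PTPRC, CD14, CD68 and ITGAM were measured on both arrays, with log2 ratios of 0.51 ± 0.28, 0.94 ± 0.20, 0.68 ± 0.20 and 1.58 ± 0.60. CD74 and CD3E were well above background with periostin siRNA alone, so that their ratios are lower bounds, at least 1.27-fold and at least 1.26-fold higher. The signals of the 9 lay between 1.61 and 1528 in the control and summed to 1862, and lay between 1.65 and 2451 after periostin silencing and summed to 3090. Most of both sums came from CD68, at 1528 and 2451. PTPRC, the common leukocyte antigen, was 17.6 and 25.1, near background, and HLA-DRA and LAPTM5 were below background on both arrays. Of 6 epithelial markers, 5 had a ratio, all above 0, with a median of 0.77 and a summed signal of 4037 and 6078. KRT18 gave most of these sums, at 3048 and 4264. EPCAM was 34.6 and 135, 3.90-fold higher, and CDH1 was below background on both arrays. Beside these immune and epithelial values, 54.5% of all genes were above 0 and 3.37% were higher past 3-fold, with a median of 0.06. Of 4 endothelial markers, 3 had a ratio, with a median of -0.08 and a summed signal of 5581 and 5303, and PECAM1 was below background. Nearly all of these sums came from TEK, at 5457 and 5175. Whether these marker genes relate to the ligand ratios was not tested.

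**Figure D5:**
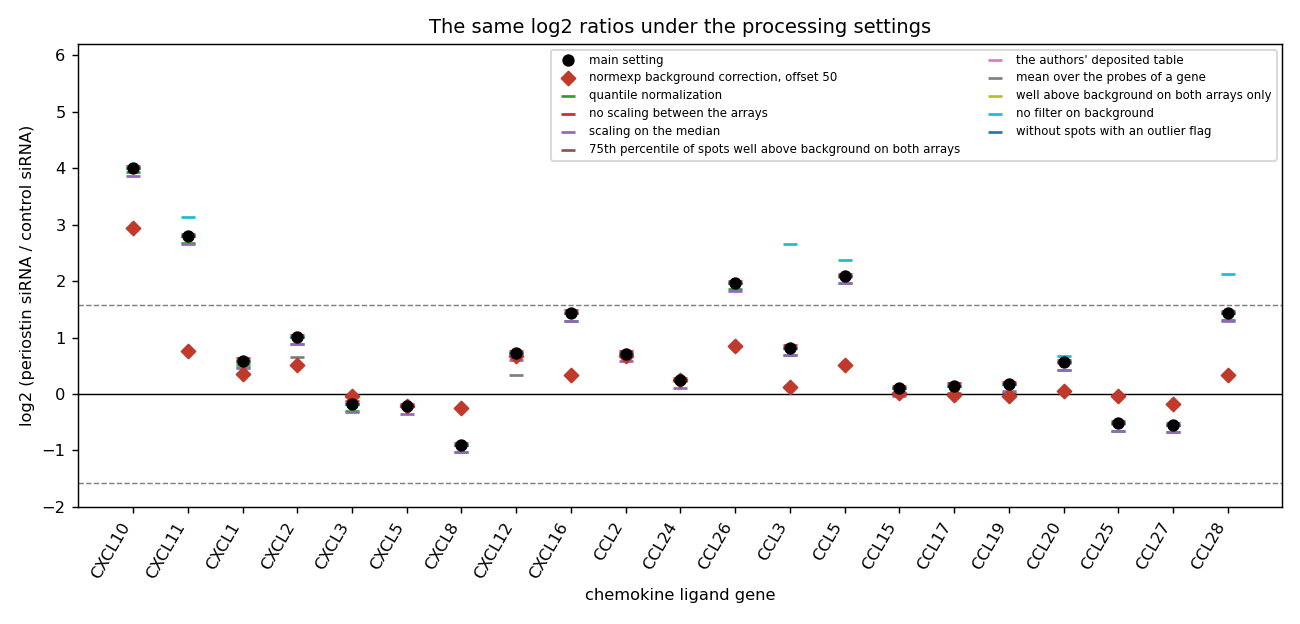
Log2 ratio (periostin siRNA over control siRNA) of the 21 chemokine ligand genes under the main setting (black circles), normexp (red diamonds) and the other processing settings (dashes); dashed lines mark 3-fold. The settings other than normexp lie close together for most genes, CXCL10 stays past 3-fold under every setting, from 2.94 to 4.04, and CXCL11, CCL5 and CCL26 lie below 3-fold under normexp at 0.76, 0.52 and 0.85.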

How the data were processed

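Total RNA of MRC-5 cells was labelled with Cy3 and hybridized to Agilent arrays, 1 for each condition. For each array the authors deposited the scanner file, in which the intensity values had been background-subtracted by Feature Extraction (version 11.5.1.1 per the file headers and 12.0.3.1 in the submitters' processing notes). A deposited table holds normalized intensity values, the method of which is not given in the sources used here. The array was annotated on hg19.

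Here log2 of the processed signal was taken, the 75th percentile over all non-control spots was subtracted per array (372 with control siRNA and 383 with periostin siRNA), and values are printed after scaling to a common 377. Control spots were left out and repeat spots were averaged as log2 values. A probe was well above background unless more of its spots lacked the scanner program's flag than had it. The brightest probe stood for a gene. Where 1 array was below background the fold is a bound, and where both were, none is given. Genes were named through RefSeq of GRCh38.p14, which matched 65.1% of spots. Every ligand matched by the symbol rule is named, with both signals where it was detected. Of the receptor, processing and inducer lists, the genes past 3-fold, the most abundant gene of each and the receptors of the ligands are named. IRF7, IRF9, IRF1, RELA, NFKBIA, DPP4, ADAM10 and ADAM17 and the list members below background were added to the named genes with their values known. The members and lists were chosen with earlier results of these data known. Protein sequences were not used here, and some members of the gene lists are counted but not reported by name.

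With 1 array per condition no test was run and no p-value is given, and the number of arrays limits the precision. The scaling and the gene-level calls were tested on simulated data with changes planted in bright genes only. Changes in dim genes, as most ligands are, and the bounds of genes higher with periostin siRNA were not covered. Alternatives were normexp with an offset of 50 in limma 3.58.1 under R 4.3.3 (on the median spot signal, since no mean signal was found in the scanner files), other scalings, the authors' table, the mean over probes, filters on background and on outlier flags, and thresholds of 2-fold and 4-fold. Other steps used Python 3.11.15, numpy 2.4.6, pandas 2.3.3 and matplotlib 3.10.9.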

Additional observations from a re-analysis of the deposited data

How the results depend on the processing

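Of 205 ligand ratios recomputed under 10 alternatives, 200 kept their sign, and CCL15, CCL17 and CCL19 were the 3 genes that did not. Part of this count was fixed in advance. No ligand spot carried an outlier flag, and the filters on background left the ratios measured on both arrays unchanged. A bound could only be above 0. The count is therefore not a measure of how firm the signs are. CXCL10 was the 1 ligand past 3-fold under normexp, where the median log2 ratio of the ligands was 0.25 and that of POSTN was -2.99, and 0.892% of all genes were higher past 3-fold. The offset of 50 is added to both arrays, so dim probes have smaller ratios by construction. Scaling on the median gave a median of 0.46, and it moved the median of all genes by -0.13. With genes detected on both arrays only, 2 ligands were past 3-fold and the median was 0.21, since the 5 bounds drop out. With no filter on background the median was 0.18, over 39 ligands of which 18 compare signals at background level, and CCL3 at 2.66 and CCL28 at 2.12 were then also past 3-fold. At 2-fold 7 ligands were higher, where 7.97% of all genes were. CCL15 was -0.03 under scaling on the median and -0.01 under quantile normalization, and under normexp CCL17 was -0.01 and CCL19 was -0.03. Under quantile normalization CCL17 was at 0 after rounding. No paired analysis was possible because there is 1 array for each siRNA, and no replicate could be left out for the same reason. The low signal of CCL3, CCL5, CCL20, CCL28 and CXCL11 with control siRNA limits their ratios to bounds.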
